A study of Homo sapiens and Mus musculus with 66 samples.

Results

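The genes described are 10 that encode the nuclear lamina (NL) and proteins that hold chromatin to it: LMNA, LMNB1, LMNB2, LBR, TMPO, LEMD2, LEMD3, BANF1, SUN1 and SUN2. They were chosen by name out of 20162 protein-coding genes and not by any measured value, and their gene bodies were placed on the regions at or near the NL that lamin-B1 cTSA-seq mapped. The question was where the genes of the lamina themselves lay relative to lamina-associated chromatin.

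In cTSA-seq, an antibody to lamin-B1 directs a tyramide reaction that deposits biotin around the NL, and the biotinylated chromatin is pulled down with streptavidin (StrePD) and compared with input. The experiments used human K562 leukemia cells and HCT116 colon carcinoma cells, and the labels name no genetic change in either line. Asynchronous untreated cells gave a bulk list for K562, a bulk list for HCT116, and HCT116 lists from 50000, 200000 and 1000000 cells. Untreated HCT116 cells sorted by DNA content gave lists for G1, S and G2. HCT116 cells blocked with nocodazole for 16 h by the labels (the study's methods give a longer block), released and sorted for G1 gave a list at 90 min (90m G1, early G1) and at 180 min (180m G1, later G1). The labels hold 2 input and 2 StrePD libraries for each of these conditions, except 1 input and 2 StrePD libraries for 50000 and for 200000 cells and 1 of each for 1000000 cells.

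For each condition 1 list of regions (LADs) deposited by the authors was used, which a three-state Hidden Markov Model called in windows of 100 kb. None of these lists separates the replicates or carries signal or read counts. The depth behind a region is therefore not known from them, no spread between replicates can be given, and none of the differences between lists below was tested. The 10 lists hold between 204 regions (90m G1) and 664 regions (K562) and cover between 526.9 Mb and 1227 Mb. A gene was counted as inside a list when at least 80% of its body lay in regions.

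The NL is a meshwork of lamin filaments under the inner nuclear membrane, built from A-type lamins (LMNA) and B-type lamins (LMNB1, LMNB2). Membrane proteins bind it and chromatin at the same time: LBR binds B-type lamins and heterochromatin, LEM domain proteins bind DNA through the small chromatin protein BAF (BANF1), and SUN proteins join the lamina to the cytoskeleton across the envelope. The envelope comes apart in mitosis and is built again around the chromosomes as cells enter G1. Chromatin at the NL is in general poor in genes and in G and C bases.

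Of the 10 members, 4 lay inside at least 1 of the 10 lists. LMNB1 and SUN1 lay in regions of 90m G1, TMPO in a region of bulk HCT116 cells and LEMD3 in a region of K562 cells. For LMNB1, TMPO and LEMD3 a window of 250 bases at the start of the gene is shown, because these are the starts of the genes on which the differences between lists turn. For TMPO and LEMD3 these are the RefSeq promoter windows, before the RefSeq start (in TMPO the last bases overlap the longest annotated body), and for LMNB1 the bases before its first annotated base in hg19 are shown, since all 250 bases of its RefSeq window lie in an untranslated exon of another LMNB1 transcript. Capitals mark each GC box (GGGCGG or CCGCCC) and each CCAAT box (CCAAT or ATTGG), searched on both strands.

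LMNB1, chr5:126112065-126112314, plus strand: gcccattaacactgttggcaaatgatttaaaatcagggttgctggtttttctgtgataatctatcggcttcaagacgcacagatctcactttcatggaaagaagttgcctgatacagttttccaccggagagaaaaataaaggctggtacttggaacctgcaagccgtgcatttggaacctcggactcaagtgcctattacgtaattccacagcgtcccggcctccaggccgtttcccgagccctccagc
TMPO, chr12:98909118-98909367, plus strand: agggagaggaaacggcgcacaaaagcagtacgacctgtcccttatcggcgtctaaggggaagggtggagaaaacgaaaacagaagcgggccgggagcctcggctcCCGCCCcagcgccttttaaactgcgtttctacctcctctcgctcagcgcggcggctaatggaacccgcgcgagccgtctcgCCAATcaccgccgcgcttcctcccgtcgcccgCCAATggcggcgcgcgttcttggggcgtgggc
LEMD3, chr12:65563113-65563362, plus strand: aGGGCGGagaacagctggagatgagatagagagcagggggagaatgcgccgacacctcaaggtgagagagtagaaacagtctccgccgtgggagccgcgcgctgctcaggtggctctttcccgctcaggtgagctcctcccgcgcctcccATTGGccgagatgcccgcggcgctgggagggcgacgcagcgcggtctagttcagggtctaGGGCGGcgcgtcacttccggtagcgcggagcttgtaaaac

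The TMPO window holds 1 GC box and 2 CCAAT boxes with 32 CpG dinucleotides, and the LEMD3 window holds 2 GC boxes and 1 CCAAT box with 25 CpGs. The LMNB1 bases shown hold neither motif and 10 CpGs, while its RefSeq window holds 4 GC boxes, 1 CCAAT box and 29 CpGs. RefSeq windows were found for 9 of the 10 members, all but SUN1. Of these 9, 6 held a GC box and 4 a CCAAT box, against 42.6% and 32% of 35116 RefSeq promoters of the same length. A TATA box (TATAAA or TTTATA) was in none of the 9 windows and in 10.7% of all. The 9 windows held between 4 and 32 CpGs with a median of 25, beside a median of 11 over all promoters. For each member only the RefSeq window nearest the start of the main transcript was taken. All promoters include every RefSeq start of a gene, so these comparisons are not of like windows. The nearest RefSeq window of LMNA, LEMD2 and LBR lay 7995, 2188 and 783 bases from the start of the main transcript, so these 3 windows are not next to it, and the lowest count of 4 CpGs came from LEMD2 and LBR. The windows of TMPO and LEMD3, the members that lay in LADs of asynchronous cells, were rich in CpGs although both genes lay in stretches of low GC content. This was not particular to them. Of the members inside none of the 10 lists, LMNB2 and SUN2 had 30 CpGs each, and LMNA and BANF1 had 18 each. These matches describe the letters only.

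Few members lay inside LADs of any condition. In K562 cells 1 of 10 members (LEMD3) lay inside LADs, beside 11% of all protein-coding genes. In bulk HCT116 cells 1 member (TMPO) lay inside, beside 11.1% of all genes. Both counts were near the background. The lists of 50000, 200000 and 1000000 HCT116 cells held none of the members, and their backgrounds were 5.98%, 5.08% and 4.89%. None lay inside the LADs of 180m G1, G1, S or G2 either, where the backgrounds were 5.3%, 4.81%, 5.38% and 4.55%. In 90m G1 2 members (LMNB1 and SUN1) lay inside, beside 17.2% of all genes, again near the background.

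Every member was either wholly inside or wholly outside the regions of each of these 10 lists, so that no count turned on the 80% limit. The other 6 members (LMNA, LMNB2, LBR, LEMD2, BANF1 and SUN2) lay inside none of the 10 lists, as did 69.5% of all protein-coding genes. Called in 90m G1 alone were 10.9% of all genes, the pattern of LMNB1 and SUN1. The pattern of LEMD3, called in K562 cells alone, was shared by 5.67% of all genes, and that of TMPO, called in bulk HCT116 cells alone, by 1.34%.

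**Figure D1:**
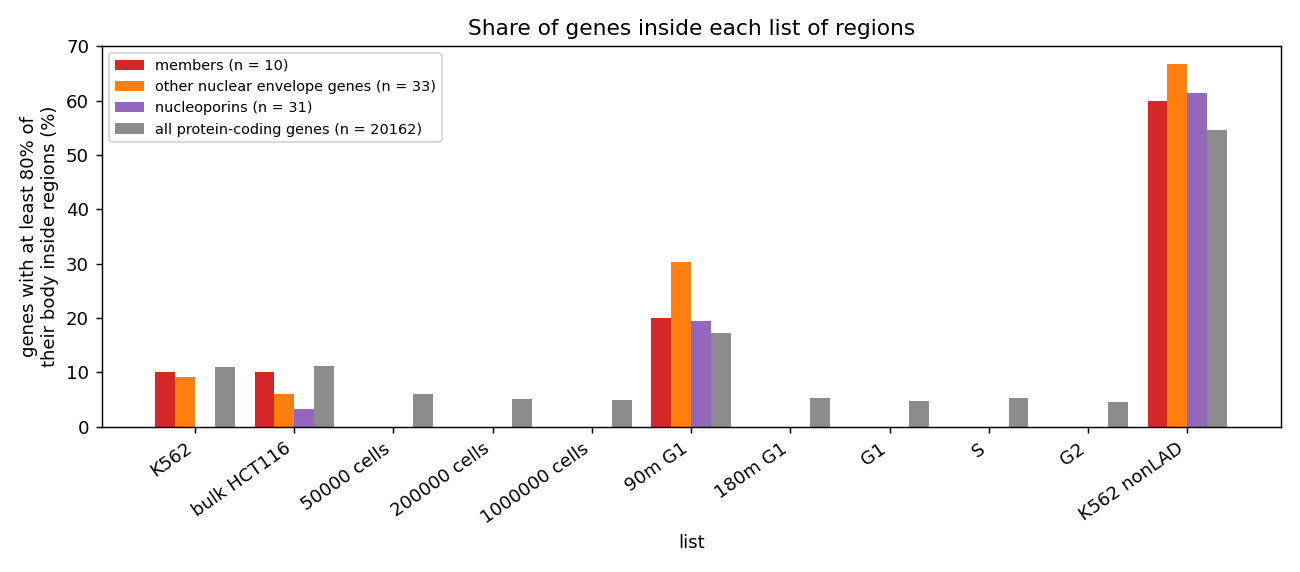
Percent of genes with at least 80% of their body inside regions (y axis) in each of the 10 lists and in the K562 nonLAD list (x axis). Bars show the 10 members (red), 33 other nuclear envelope genes (orange), 31 nucleoporins (purple) and all 20162 protein-coding genes (grey), and all 3 gene lists have a bar in 90m G1 and none in 7 of the 10 lists.

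The 3 lamin genes lay at different distances from LADs. LMNB1 encodes lamin B1, the protein the antibody of the assay binds, and its body of 60.4 kb lies at chr5:126112315-126172712 (hg19, plus strand), 54.7 Mb from the nearer end of the chromosome. In 90m G1 the gene lay wholly inside a region, whereas in the other 8 HCT116 lists the nearest region was between 8.63 Mb (bulk) and 9.53 Mb (1000000 cells and 180m G1) away. In K562 cells the nearest region was 0.312 Mb away. LMNB1 was therefore far from LADs of HCT116 cells in all lists but 90m G1, and close to but outside those of K562 cells.

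The 90m G1 region at LMNB1 was a single window, chr5:126100001-126200000. LMNB1 was the only protein-coding gene in this window, and the divergent noncoding gene LMNB1-DT (chr5:126087655-126112178, minus strand) had 49.7% of its body in it. The next 90m G1 region began 6.4 Mb further along the chromosome, and the one before ended 109 Mb away. None of the other 13 lists, nonLADs included, had any base of the window called. Windows of this kind were rare in 90m G1. Of its 204 regions, 10 were single windows, and 3 of these lay 5 Mb or more from any other region. The other two were chr1:161400001-161500000, which overlaps FCGR2A and HSPA6 and is 39.4 Mb from the next region, and the first window of chromosome 16, 5.3 Mb from the next region.

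In K562 cells the surroundings of LMNB1 looked different. The gene lay in a gap of 0.7 Mb between 2 LADs, and 60% of the 2 Mb around it was called, while 0% was called in bulk HCT116 cells and 5% in 90m G1, the single window. The TSA-seq LADs of K562 cells, which the authors called in the same way from published data, left a gap of 0.9 Mb at the same place and came within 0.412 Mb of the gene. In K562 cells the gene was thus flanked on both sides by LADs by both methods without being called by either one.

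LMNB2 encodes lamin B2 and lies at chr19:2427636-2456957 (minus strand), 2.43 Mb from the start of the chromosome, in a stretch with 55.7% GC. It was never closer than 9.44 Mb to a region. The nearest region was 21.9 Mb away in K562 cells, 17.6 Mb in bulk HCT116 cells, 9.44 Mb with 50000 cells and 9.64 Mb with 200000 cells. The distances were 17.4 Mb with 1000000 cells and in G1 and 17.5 Mb in S and G2, and chromosome 19 had no region at all in 90m G1 or 180m G1. LMNB2 lies 4.11% of the chromosome's length from its start, and it was not in an early G1 region.

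LMNA encodes lamins A and C and lies at chr1:156052364-156109872 (plus strand), with 67 protein-coding genes in the 2 Mb around it. Its distance to the nearest region was 1.39 Mb in K562 cells and 1.89 Mb in bulk HCT116 cells. Over the 9 HCT116 lists it ran from 1.09 Mb with 1000000 cells to 5.29 Mb in 90m G1, with a median of 2.09 Mb. Apart from 90m G1, none of the 10 lists had its nearest region further than 2.29 Mb. LMNA, while never inside, was the lamin gene with the shortest median distance in HCT116 cells. The median was 9.33 Mb for LMNB1 and 17.4 Mb for LMNB2, the latter over the 7 lists with a region on its chromosome. The K562 region 1.39 Mb from LMNA was found by cTSA-seq only. In the TSA-seq list of K562 cells the nearest region was 6.79 Mb away.

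**Figure D2:**
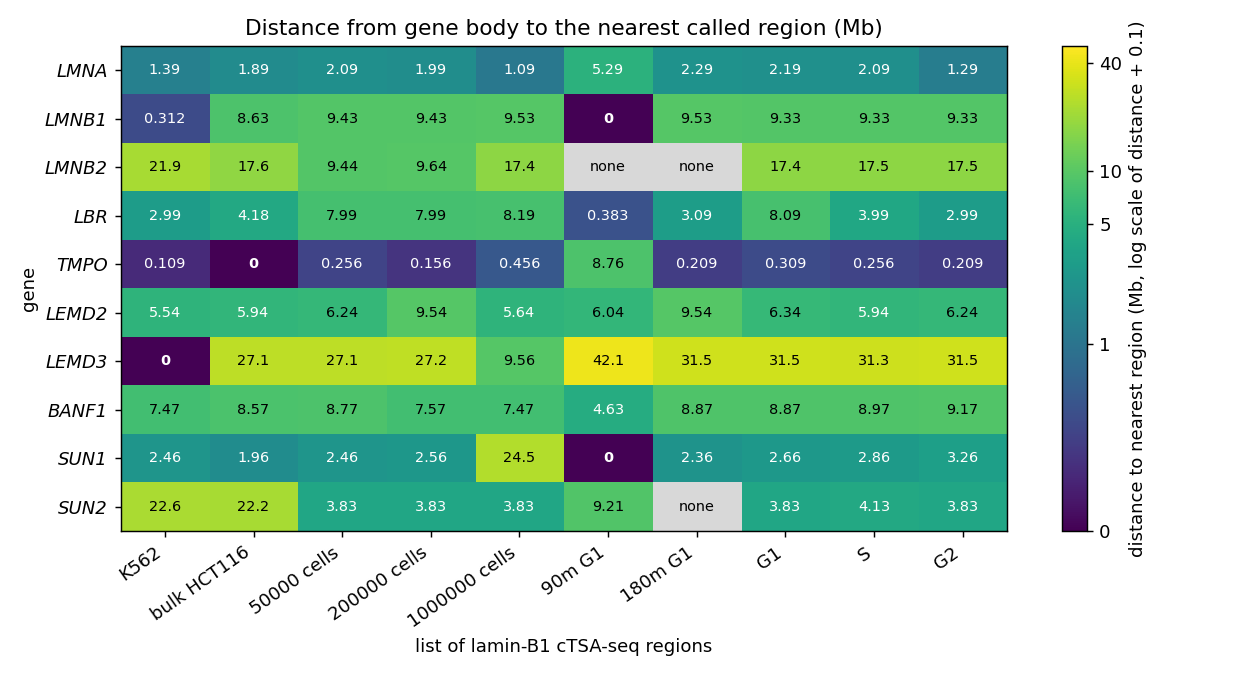
Distance in Mb from the body of each of the 10 genes (rows) to the nearest region of each of the 10 lists (columns), coloured on a log scale of distance + 0.1 Mb. A 0 in bold marks a gene inside a region and grey cells marked none have no region on the chromosome, and the 4 zeros belong to LMNB1 and SUN1 in 90m G1, TMPO in bulk HCT116 cells and LEMD3 in K562 cells.

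LBR encodes the lamin B receptor, a membrane protein that also acts in sterol synthesis, and lies at chr1:225589204-225616627 (minus strand), 23.6 Mb from the end of the chromosome. It was outside all lists, and 90m G1 brought regions closest to it. There the nearest region was 0.383 Mb away, against 3.09 Mb in 180m G1, 8.09 Mb in G1, 3.99 Mb in S and 2.99 Mb in G2. In K562 cells the distance was 2.99 Mb, in bulk HCT116 cells 4.18 Mb, and with 50000, 200000 and 1000000 cells 7.99, 7.99 and 8.19 Mb. The 90m G1 list was thus the only one of the 10 in which a region came within 2 Mb of LBR.

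At 90 min LBR sat in a gap of 0.9 Mb between a region that ended 0.489 Mb before the gene and one that began 0.383 Mb after it, and 55% of the surrounding 2 Mb was called. In all other 9 lists 0% of those 2 Mb was called. The published TSA-seq data of K562 cells had a region 0.0892 Mb from LBR that cTSA-seq did not call, and 20% of the 2 Mb was called there. LBR was also not inside the regions depleted by both methods in K562 cells (nonLADs), the nearest of which was 0.283 Mb away.

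TMPO encodes the lamina-associated polypeptides 2, of which several carry a transmembrane segment, and lies at chr12:98909357-98944129 (plus strand). It had the shortest median distance of the members over the 9 HCT116 lists, 0.256 Mb, and 90m G1 was the exception. The gene was inside a LAD of bulk HCT116 cells, and in K562 cells it lay 0.109 Mb from one. With 50000, 200000 and 1000000 cells the distances were 0.256, 0.156 and 0.456 Mb, and in 180m G1, G1, S and G2 they were 0.209, 0.309, 0.256 and 0.209 Mb. In 90m G1 the nearest region was 8.76 Mb away. TMPO was hence inside or within 0.456 Mb of a LAD in 9 of the 10 lists.

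The bulk LAD that holds TMPO ran over 3 Mb (chr12:97400001-100400000) with 6 whole protein-coding genes. In most other lists the same stretch was split by a gap at the gene. The share of the stretch called was 86.7% in K562 cells, 73.3% with 50000 cells, 80% with 200000 cells and 50% with 1000000 cells. Over the sorted stages it was 60% (G1), 73.3% (S) and 76.7% (G2), and after release it was 0% at 90 min and 73.3% at 180 min. The gap around TMPO was 0.4 Mb wide in K562 cells, by cTSA-seq and by TSA-seq alike, and in the 7 split HCT116 lists it ran from 0.5 Mb with 200000 cells to 1 Mb with 1000000 cells. The surroundings of TMPO were thus called in K562 cells and in all HCT116 lists but 90m G1. Those of LMNB1 were called in K562 cells. Among the HCT116 lists, only 90m G1 had a call there, on the single window that holds LMNB1 itself.

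LEMD2 and LEMD3 (MAN1) encode membrane proteins with a LEM domain, and LEMD3 also binds the SMAD proteins of TGF-beta signalling. LEMD3, at chr12:65563363-65642135 (plus strand), was inside a LAD of K562 cells. In HCT116 cells its nearest region was 27.1 Mb away in bulk, 27.1, 27.2 and 9.56 Mb with 50000, 200000 and 1000000 cells, 42.1 Mb in 90m G1, 31.3 Mb in S and 31.5 Mb in 180m G1, G1 and G2. LEMD3 was thus inside in K562 cells and 9.56 Mb or more from any region in HCT116 cells.

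The K562 LAD at LEMD3 was 1.2 Mb long (chr12:65200001-66400000) with 4 whole protein-coding genes, and 60% of the 2 Mb around the gene was called. This LAD was one of those that the authors found by cTSA-seq only. In the TSA-seq list the nearest region was 1.46 Mb away, and none of the 9 HCT116 lists had any of the LAD called. Of the members, 1 (LEMD3) lay inside the cTSA-seq only list, beside 2.25% of all genes. The TSA-seq list and the list shared by both methods held 0 members, beside 9.21% and 6.78% of all genes.

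LEMD2, at chr6:33738979-33756907 (minus strand), was outside in every condition. Its distance was 5.54 Mb in K562 cells, 5.94 Mb in bulk HCT116 cells, 6.24, 9.54 and 5.64 Mb with 50000, 200000 and 1000000 cells, 6.04 Mb in 90m G1, 9.54 Mb in 180m G1 and 6.34, 5.94 and 6.24 Mb in G1, S and G2. The region at 5.94 Mb in bulk was on the side towards the end of the chromosome, and where it was not called the nearest one lay at 9.54 Mb on the other side. The K562 region 5.54 Mb from LEMD2 was found by cTSA-seq only, and the nearest TSA-seq region of K562 cells was 9.44 Mb away. BANF1, which encodes the chromatin protein that LEM domains bind, is the shortest member with 1.92 kb (chr11:65769699-65771620, plus strand). Its nearest region was 7.47 Mb away in K562 cells, between 7.47 and 9.17 Mb in 8 of the HCT116 lists, and 4.63 Mb in 90m G1. With 88 protein-coding genes in the surrounding 2 Mb, BANF1 lay in the most gene-dense place of all members.

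SUN1 and SUN2 encode the inner-membrane part of the bridges to the cytoskeleton, and their places differed. SUN1 (chr7:856252-936072, plus strand) begins 0.856 Mb from the start of chromosome 7. It was inside a region of 90m G1. In K562 cells the nearest region was 2.46 Mb away, and in HCT116 cells 1.96 Mb in bulk, 2.46, 2.56 and 24.5 Mb with 50000, 200000 and 1000000 cells, and 2.36, 2.66, 2.86 and 3.26 Mb in 180m G1, G1, S and G2. Among the 10 lists the gene was inside in 90m G1 alone, and apart from 1000000 cells a region lay within 3.26 Mb in each. The K562 region at 2.46 Mb was found by cTSA-seq only. In the TSA-seq list of K562 cells the nearest region was 7.46 Mb away.

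The 90m G1 region at SUN1 started with the chromosome and ran over 5.7 Mb (chr7:1-5700000), or 57 windows with 51 whole protein-coding genes. Of this stretch 35.1% was called in bulk HCT116 cells, 19.3%, 15.8% and 0% with 50000, 200000 and 1000000 cells, and 14% in K562 cells. At 180 min the share was 14%, and the sorted stages had 15.8% (G1), 7.02% (S) and 3.51% (G2). In K562 cells 75.4% of it was nonLAD. The part called in the other lists lay beyond SUN1, away from the chromosome end, as the map of regions around the gene shows.

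SUN2 (chr22:39129295-39190148, minus strand) was not inside any list. Its nearest region was 22.6 Mb away in K562 cells and 22.2 Mb in bulk HCT116 cells, 3.83 Mb with 50000, 200000 and 1000000 cells and in G1 and G2, 4.13 Mb in S and 9.21 Mb in 90m G1. Chromosome 22 had no region in 180m G1. The values of 3.83 and 4.13 Mb came from 6 HCT116 lists with a region that close to SUN2, whereas the nearest region of both bulk lists was on the same side but further away. The K562 region was found by cTSA-seq only, and the TSA-seq list of K562 cells had no region on chromosome 22.

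**Figure D3:**
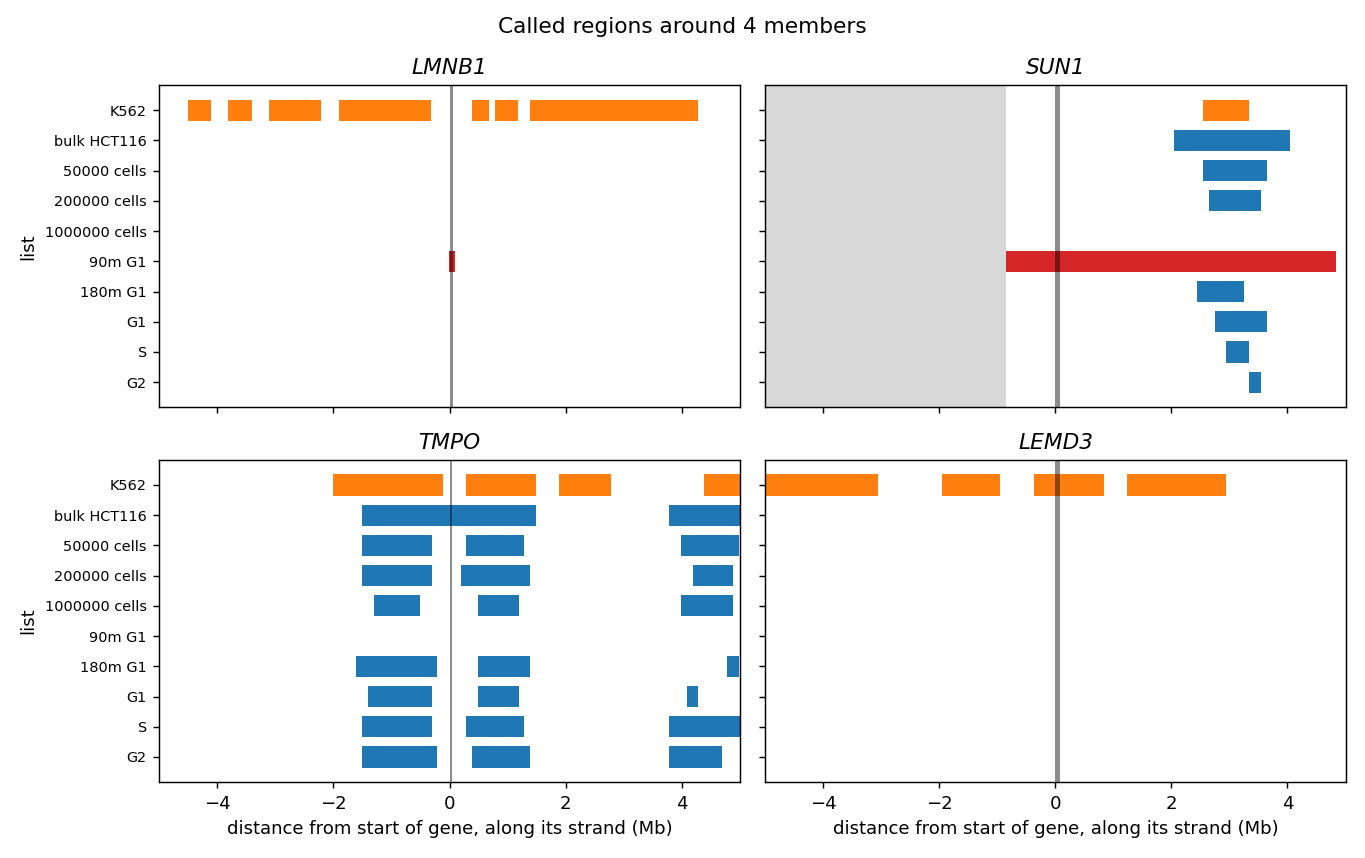
Regions within 5 Mb of the start of LMNB1, SUN1, TMPO and LEMD3 in each of the 10 lists (rows), with K562 in orange, 90m G1 in red and the other HCT116 lists in blue. The x axis gives the distance in Mb along the gene's strand, the dark band is the gene body and the light grey area lies beyond the chromosome start. LMNB1 has a single 100 kb window in 90m G1, SUN1 a region of 5.7 Mb from the chromosome start, TMPO a gap in 8 lists and LEMD3 regions in K562 cells only.

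To ask which members lay in 90m G1 regions near chromosome ends, a region was counted as near an end when it reached the outermost 2.5% of the chromosome. Of the 2 members called at 90 min, SUN1 was in such a region and LMNB1, 54.7 Mb from an end, was not. Over all genes, 49 of the 204 regions were near an end, and they held 1940 of the 3461 protein-coding genes called (56.1%). At 180 min neither member was called. The nearest region was then 2.36 Mb from SUN1 and 9.53 Mb from LMNB1.

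Taken as a median over 10 genes, distances to LADs were long for the members. In K562 cells the median over the 10 members was 2.73 Mb, beside 1.55 Mb over all protein-coding genes. In bulk HCT116 cells it was 7.26 Mb beside 1.85 Mb, and with 50000, 200000 and 1000000 cells 7.12, 7.78 and 7.83 Mb beside 2.06, 2.32 and 2.36 Mb. After release it was 5.29 Mb beside 5.12 Mb in 90m G1, where 1 member had no region on its chromosome, and 5.98 Mb beside 2.71 Mb in 180m G1, where 2 had none. In G1, S and G2 the medians were 7.22, 5.04 and 5.04 Mb beside 2.46, 2.31 and 2.61 Mb. The members' median was longer than that of all genes in each list, by the least in 90m G1, and the difference was not tested. For the 33 other nuclear envelope genes the medians were 2.8 Mb in K562 cells and 1.99 Mb (bulk) to 3.02 Mb (G2) in HCT116 lists. For the 31 nucleoporins they were 1.36 Mb in K562 cells and 2.78 Mb (180m G1) to 4.38 Mb (G2) in HCT116 lists. In each HCT116 list the medians of both groups were shorter than that of the members.

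In K562 cells 6 of the 10 members lay inside nonLADs, beside 54.6% of all genes, which is near the background. They were LMNA, LMNB2, LEMD2, BANF1, SUN1 and SUN2. SUN1 was thus called depleted in K562 cells by both methods and enriched in HCT116 cells at 90 min, and the contrast crosses cell lines, since no early G1 list of K562 cells was used here. The 4 members outside nonLADs were LMNB1, LBR, TMPO and LEMD3, with the nearest nonLAD 5.13, 0.283, 4.31 and 7.26 Mb away.

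The 6 members inside nonLADs lay in stretches richer in GC and in genes than the other 4, as did genes in general. The GC content of the 6 gene bodies was between 52.7% (SUN1) and 59.7% (LMNB2), where all genes inside nonLADs had a median of 50.3%. That of the other 4 was between 35.5% (LEMD3) and 42.3% (LMNB1), beside a median of 40.5% over all genes not inside nonLADs. In the 2 Mb around them, the GC content was 48.3% to 55.7% for the 6 and 39.2% to 42.7% for the 4, and the medians over all genes were 46.8% and 40.2%. The 6 had between 24 (SUN1) and 88 (BANF1) protein-coding genes in these 2 Mb and the 4 between 5 (TMPO) and 18 (LBR), beside medians of 38 and 14 over all genes. The 6 and the 4 members did not overlap in these values. Over all genes, the lower and upper quartiles of body GC content were 44.7% and 55.7% inside nonLADs and 38% and 44.8% not inside. These ranges overlapped. In the 2 Mb, the lower quartiles inside (44.5% GC, 24 genes) were above the upper quartiles not inside (42.3%, 20 genes). The direction in the members was that of all genes, as the plot of GC content against gene number shows for the members.

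**Figure D4:**
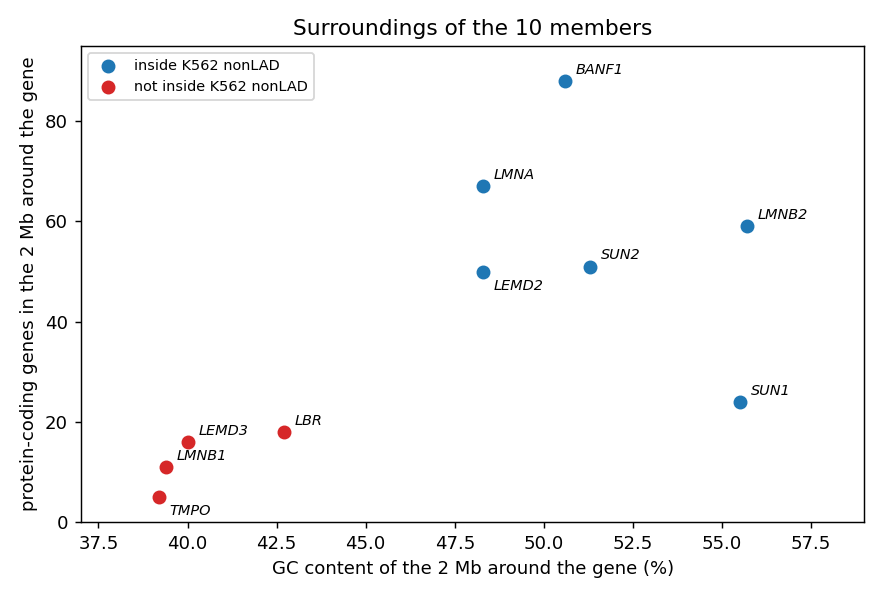
GC content in percent (x axis) and number of protein-coding genes (y axis) of the 2 Mb around each of the 10 members, 1 point a gene. The 6 members inside K562 nonLADs (blue) have 24 genes or more, and the other 4 (red) have 18 or fewer.

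Around the members, 3 had any LAD within the surrounding 2 Mb in K562 cells (LMNB1, TMPO and LEMD3) and 3 in 90m G1 (LMNB1, LBR and SUN1). In each of the other 8 lists only TMPO had one. The share of these 2 Mb called in K562 cells was 60% for LMNB1, 80% for TMPO and 60% for LEMD3. In 90m G1 it was 5% for LMNB1, 55% for LBR and 100% for SUN1. LMNB1 was the only member with a region in its 2 Mb in both of these lists.

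Genes on other chromosomes with the same calls in all 10 lists as a member were ranked by the mean absolute difference of their distances over the 10 lists, and candidates had a distance in every list. For TMPO the most alike were PKDCC at 0.215 Mb, CCDC168 at 0.246 Mb and TEX30 at 0.252 Mb, out of 254 candidates. The likeness was poorer for SUN1, with DIO3 at 2.35 Mb, FOXF1 at 2.38 Mb and MTHFSD at 2.39 Mb out of 2086.

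Other genes of the nuclear envelope were, like most genes, outside LADs. Of 33 such genes, 3 (9.09%) were inside LADs of K562 cells and 2 (6.06%) inside those of bulk HCT116 cells, beside 11% and 11.1% of all genes. The K562 genes were SYNE1, which encodes the large outer-membrane protein nesprin-1, SUN3, a SUN protein of the germ line, and MLIP, which binds lamin A. Those in bulk HCT116 cells were ANKLE2, a LEM domain protein, and ICMT, which methylates prenylated proteins such as the B-type lamins. None of the 33 was inside the lists of the 3 cell numbers or of 180m G1, G1, S or G2, beside 4.55% to 5.98% of all genes. In nonLADs of K562 cells lay 22 of the 33 (66.7%), beside 54.6% of all genes.

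In 90m G1 10 of the 33 genes (30.3%) were inside regions, beside 17.2% of all genes. They were EMD, the gene of the LEM protein emerin, LEMD1, ANKLE2, SYNE3, TMEM43, TMEM201, PLPP7, LPIN1, VRK1 and ICMT. VRK1 encodes the kinase that phosphorylates BAF, and LPIN1 a phosphatidate phosphatase. Of these 10, 7 lay in regions near a chromosome end, beside 56.1% of all genes called in 90m G1, the exceptions being LEMD1, SYNE3 and VRK1. The 7 genes themselves were between 0.513 Mb (ANKLE2) and 14.2 Mb (TMEM43) from the end. The count of 7 depended on the limit. It was 10 with 20% of the chromosome and 5 with 5 Mb, for which no share over all genes was computed. Several of the 10 genes shared a region and are not separate events. TMEM201 and ICMT lay together at chr1:5800001-10000000 and SYNE3 and VRK1 at chr14:94200001-102100000. EMD lay in a region of 18.5 Mb towards the end of the X chromosome (chrX:135600001-154100000).

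Of 31 nucleoporin genes, 6 (19.4%) were inside 90m G1 regions, near the 17.2% of all genes. They were NUP98, NUP133, NUP210, NUP214, SEC13 and AHCTF1, the last of which encodes ELYS, the factor that starts pore assembly on chromatin. Among them 5 lay in regions near a chromosome end, all but NUP133, beside 56.1% of all genes called there. The genes themselves were between 2.16 Mb (AHCTF1) and 13.4 Mb (NUP210) from the end. With limits of 20% of the chromosome and of 5 Mb, the counts were 6 and 5. NUP210 and SEC13 shared the region chr3:1-16600000 with TMEM43, and NUP214 shared chr9:132800001-141000000 with PLPP7. In bulk HCT116 cells 1 nucleoporin gene (AHCTF1, 3.23%) was inside, beside 11.1% of all genes. In K562 cells there were 0 by cTSA-seq and 2 (6.45%) by TSA-seq (NUP35 and TPR), beside 11% and 9.21% of all genes. The other 7 lists held 0, beside 4.55% to 5.98% of all genes. In nonLADs lay 19 of the 31 (61.3%), beside 54.6% of all genes. In all 3 groups of genes, as over all genes, the 90m G1 list held the most members among the 10 lists.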

How the data were processed

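The lists came from cTSA-seq of lamin B1 in K562 and HCT116 cells. Reads were mapped by the authors to hg19 (Bowtie 2.3.2), freed of duplicates and counted per window (bedtools 2.26.0). After scaling for library size, log2 ratios of StrePD over input were turned into z-scores, from which a three-state Hidden Markov Model called the regions. They intersected the calls of replicates. The 90m G1 and 180m G1 lists are not named as consensus lists, and the list of 1000000 cells is, although the labels give it 1 library of each kind. The lists deposited by the authors hold starts and ends of regions in bp and no signal, ratio or count, so depth and its precision are not known from them. Reads and signal tracks were not analysed here.

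Gene bodies came from GENCODE release 44 mapped to hg19 (protein-coding, chromosomes 1 to 22, X and Y). A mitochondrial region in the 50000-cell list was left out. Percent inside, distance to the nearest region, shares of 2 Mb around the gene's middle and GC content were computed in Python 3.11.15 with numpy 2.4.6 and pandas 2.3.3, and figures were drawn with matplotlib 3.10.9. A gene on a chromosome without regions had no distance. Overlaps and distances were tested on simulated intervals. Promoters were RefSeq's (GRCh38.p14), placed on hg19 by exact match and cut to the 250 bases before the start.

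Libraries were grouped by their labels. No test was made, since each condition has 1 list. Alternatives for a gene inside a list were any overlap, 50% or 100% of the body and the start site alone. Distances were also taken from the start site. Further alternatives were leaving out regions under 200 kb and joining regions across gaps of at most 100 kb. Other widths of the chromosome end (20% of its length, 5 Mb) and 1 or 4 Mb around the gene were also used. Named were all 10 members, the other envelope genes and nucleoporins inside at least 1 list, and up to 3 genes most like each member inside a list. The genes most like LMNB1 and LEMD3 are not reported here. FCGR2A, HSPA6, NUP35 and TPR were named after their values were seen. The members, lists of genes and settings were chosen with earlier results of these data known. Mouse, hTERT-RPE1, senescence and SLAM-seq data were not used here.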

Additional observations from a re-analysis of the deposited data

How the results depend on the processing

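The counts of members inside a list remained within 1.5 times their value in 59 of 60 alternatives. Most of these could not have moved a count. Every member was wholly inside or wholly outside each list, so limits on the share of the body and the start site alone changed nothing. Dropping small regions could change a count only in the lists that held a member. The median distances remained within 100 kb of theirs in 29 of 30. By the rule for counts, the members in nonLADs and those in 90m G1 regions near chromosome ends were kept in 2 of 2 each. The members were also wholly inside or wholly outside nonLADs, so the 2 alternatives there could not change that count. For the counts of other envelope genes and nucleoporins inside the lists, any overlap was the only alternative run, and they were kept in 22 of 22. The other envelope genes in bulk HCT116 cells went from 2 to 3, which is at the limit of 1.5 times. With regions of at least 200 kb only, LMNB1 was no longer inside 90m G1, which left 1 member (SUN1), and the median distance in 90m G1 was 6.43 Mb in place of 5.29 Mb, since its single window of 100 kb was dropped. Within 4 Mb instead of 2 Mb, 2 members and not 1 had a LAD nearby in bulk HCT116 cells, with 1000000 cells and in G2, since more sequence was searched, and 17 of 20 such counts were otherwise kept. Leaving out a replicate could not be done, because each condition has 1 list, which does not separate its replicates. No paired analysis was possible because the result comes from no test. The 100 kb windows limit the place of a boundary, and a call on 1 window such as that at LMNB1 cannot be checked against depth.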
